A study of Saccharomyces cerevisiae with 12 samples.

Results

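The genes described here are 10 components of the pheromone signalling pathway of Saccharomyces cerevisiae, of 5449 named S. cerevisiae genes on the array. They are GPA1, STE4, STE18, STE5, STE20, STE11, STE7, FUS3, STE12 and FAR1. Each was found through the annotation of its probe set, each had 1 probe set, and none was left out by a filter. The set was put together with the pattern of STE18 in view, high at 5 and less high at 25 generations of low-shear modeled microgravity (LSMMG). The levels of the components in LSMMG and control arrays are therefore given below as a description, with no test. The comparison of the 25- and 5-generation controls was not used to choose them and was tested.

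The cells were BY4743, a diploid laboratory strain, grown in YPD in log phase in high aspect ratio vessels (HARVs), rotating bioreactors. The LSMMG vessel was in the vertical position, where cells revolve around a horizontal axis and stay suspended at low shear. The control HARV differed only in its horizontal position, where cells revolve around a vertical axis. Nothing else in the labels sets LSMMG and control groups apart. Affymetrix Yeast Genome 2.0 arrays, 12 in all, measured total RNA, 3 of LSMMG cultures after 5 generations (SMG 5), 3 of LSMMG cultures after 25 generations (SMG 25), 3 of control cultures after 5 generations (Ctrl 5) and 3 of control cultures after 25 generations (Ctrl 25). All 6 control arrays served as the control group (Ctrl) for both times, since pooled controls are also what the methods describe. All groups are of 1 strain, and the labels do not say which arrays share a culture, so p-values measure the spread between these arrays, which may be technical.

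In haploid yeast the pheromone of the opposite mating type binds a receptor and frees the Gβγ pair Ste4 and Ste18 from the Gα subunit Gpa1. The freed pair brings the kinase Ste20 and the scaffold Ste5 together, a MAP kinase cascade of Ste11, Ste7 and Fus3 follows, and Fus3 acts on the transcription factor Ste12 and on Far1, which stops the cell cycle and directs growth towards the partner. In an a/alpha diploid the a1-alpha2 repressor shuts off haploid-specific genes, among them GPA1, STE4, STE18, STE5, FUS3 and FAR1, so these cells do not mate, while STE20, STE11 and STE7 also serve filamentous growth.

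Every value below is a ratio. The authors' file gives each probe set relative to a level of its own, close to its median over the 12 arrays, and each array relative to its own median. A ratio of 1 is thus the typical level of that gene on these arrays, and ratios of different genes do not show which transcript is more abundant. For the same reason the file cannot show whether the haploid-specific genes were silent, as the label diploid implies, or which markers were at 0. Error terms are standard errors (SE) on the log2 scale from a limma fit to 8968 probe sets, and a gene was called higher or lower at a Benjamini-Hochberg adjusted p under 0.05. In that fit 22.5% of probe sets were called higher and 18.3% lower in SMG 5 than in Ctrl, and for SMG 25 the shares were 21.7% and 17.9%. Among the 5449 named genes the shares were larger, 34.3% and 26.8% in SMG 5 and 33.2% and 25.3% in SMG 25, and the median log2 fold change was 0.13 in SMG 5 and 0.15 in SMG 25.

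Several control arrays stood apart. The median ratio of 16 ribosomal RNA probe sets was 104 and 96.9 on Ctrl 25 replicates 1 and 2 and 2.87 on Ctrl 25 replicate 3, against at most 1.14 on every other array. BSC1, a gene outside the mating lists, was at 30.4 on Ctrl 5 replicate 3 and 24.8 on Ctrl 25 replicate 3, with 0.715 to 1.03 on the LSMMG arrays. Ctrl 5 replicates 1 and 2 differed from the other 4 control arrays in many mating genes. Values without them are given for the components, for the counts over lists and for each named gene whose call turned on them. No such values are given for chromosome neighbours or for genes named after their values were seen, such as MFA2. The titles give 3 controls of each generation, a heat map legend of the study lists 4 of 5 and 2 of 25 generations, and the study left out 1 aberrant control array without naming it. The growth protocol of every sample states 5 generations, so the generation of an array rests on its title, and whether the titles of Ctrl 5 replicates 1 and 2 are right was not tested. The titles were followed, and all 12 arrays were kept.

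STE18, the Gγ subunit, had by far the highest ratios among the components. It was at 4.31, 5.03 and 4.46 in SMG 5, at 1.57, 1.42 and 0.944 in SMG 25, at 0.597, 1.07 and 0.429 in Ctrl 5 and at 0.553, 0.579 and 0.381 in Ctrl 25. The 3 arrays of SMG 5 lay far above all others, and SMG 25 overlapped the controls through its replicate 3, which was below Ctrl 5 replicate 2. The log2 fold change was 3.01 (SE 0.27), or 8.08-fold, for SMG 5 against Ctrl and 1.17 (SE 0.27) for SMG 25 against Ctrl. Between the times, SMG 25 minus SMG 5, it was −1.84 (SE 0.32), the most negative difference of all 5449 named genes. STE18 ranked 33 from the top for SMG 5 against Ctrl and 539 for SMG 25 against Ctrl.

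The partners of Ste18 did not share this profile. STE4, the Gβ subunit that binds Ste18, was at 1.12, 0.919 and 1.08 in SMG 5 and at 0.925, 1.14 and 1.16 in SMG 25, against 1.08, 1.15 and 0.701 in Ctrl 5 and 0.626, 0.658 and 0.667 in Ctrl 25. Ctrl 5 replicates 1 and 2 lay within the range of the LSMMG arrays, and the other 4 controls were lower. Its log2 fold change was 0.40 (SE 0.20) in SMG 5 and 0.44 (SE 0.20) in SMG 25, with a difference of 0.04 (SE 0.23) between the times.

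GPA1, the Gα subunit, followed STE4 rather than STE18. It was at 1.32, 0.949 and 0.999 in SMG 5 and at 1.20, 1.05 and 1.0 in SMG 25, against 1.15, 1.52 and 0.543 in Ctrl 5 and 0.623, 0.553 and 0.396 in Ctrl 25. The highest value of all was on a control, Ctrl 5 replicate 2, and the lowest on Ctrl 25 replicate 3. At each time GPA1 had a log2 fold change of 0.60 (SE 0.36). The 3 subunits of the heterotrimer thus had log2 fold changes of 0.60, 0.40 and 3.01 in SMG 5 and of 0.60, 0.44 and 1.17 in SMG 25 for Gα, Gβ and Gγ in this order.

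**Figure D1:**
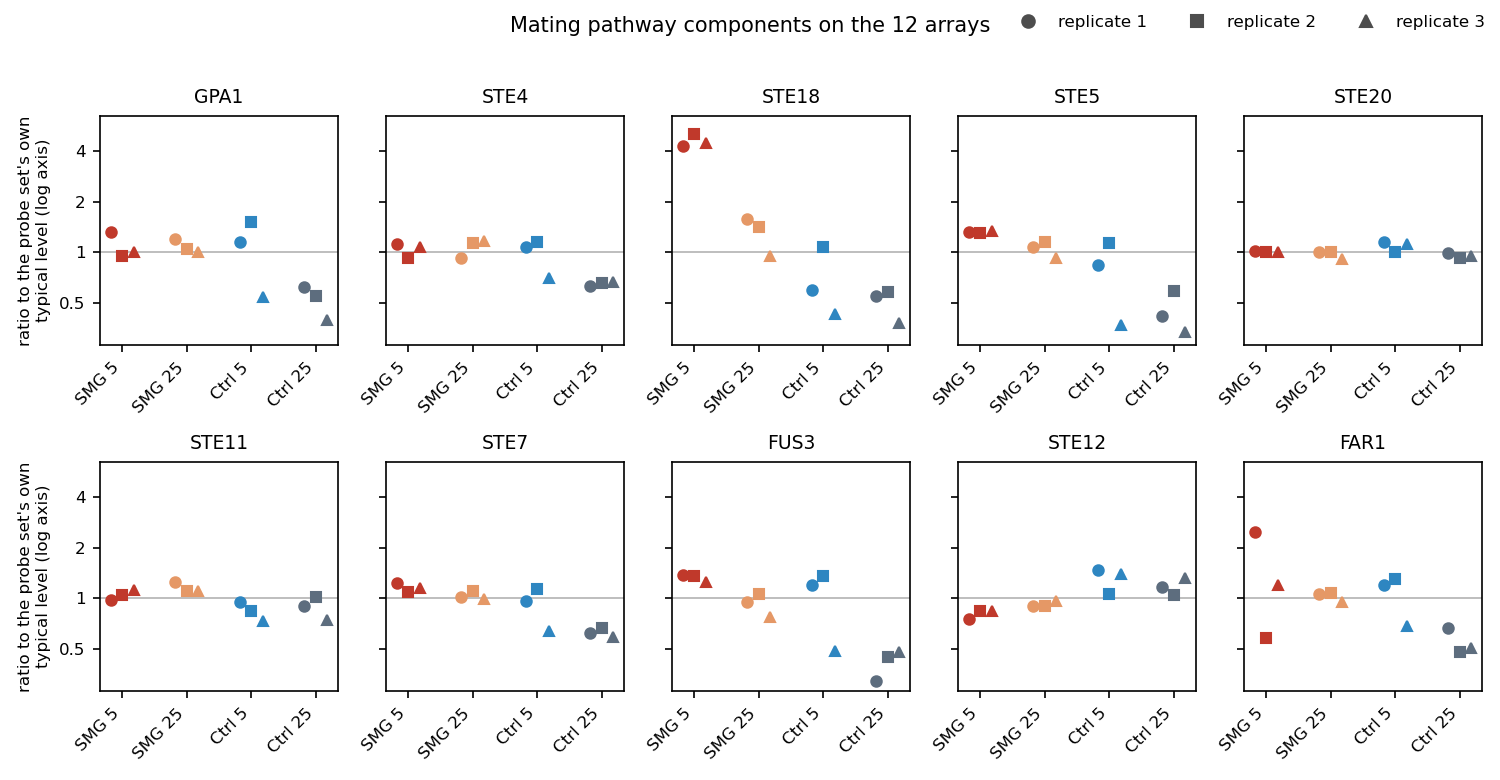
Ratio of each of the 10 mating pathway components on the 12 arrays (log axis), by group, with a point per array and the replicate shown by the symbol. STE18 stands between 4.31 and 5.03 in SMG 5, and GPA1, STE4, STE5, STE7, FUS3 and FAR1 are lower on Ctrl 5 replicate 3 and the 3 Ctrl 25 arrays than on Ctrl 5 replicates 1 and 2.

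STE5, the scaffold that gathers the kinases at the membrane, had the second largest log2 fold change. It was at 1.32, 1.30 and 1.34 in SMG 5 and at 1.08, 1.15 and 0.921 in SMG 25, against 0.844, 1.14 and 0.370 in Ctrl 5 and 0.415, 0.585 and 0.335 in Ctrl 25. All 3 arrays of SMG 5 were above every control, while those of SMG 25 overlapped Ctrl 5 replicate 2. For STE5 this change was 1.25 (SE 0.33) in SMG 5 and 0.92 (SE 0.33) in SMG 25 on the log2 scale.

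The kinases of the cascade had different profiles. STE20, the PAK kinase at its head, was nearly flat, at 1.02, 1.01 and 1.01 in SMG 5 and at 1.0, 1.0 and 0.914 in SMG 25, against 1.15, 0.999 and 1.12 in Ctrl 5 and 0.996, 0.927 and 0.951 in Ctrl 25. The SD of its log2 ratio over the 12 arrays was 0.0955. Only 1.60% of named genes, and 4.81% of the 1746 Schizosaccharomyces pombe probe sets on the same array, which no RNA of this study was meant to bind, had a smaller SD. The median SD of those S. pombe probe sets was 0.163 and that of named S. cerevisiae genes 0.376, so STE20 varied no more over these arrays than a probe set without its own target. Its ratios say nothing of whether STE20 RNA was bound.

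STE11, the MAP kinase kinase kinase, was the only component whose 3 arrays of SMG 25 all lay above every control. It was at 0.975, 1.04 and 1.12 in SMG 5 and at 1.24, 1.10 and 1.11 in SMG 25, against 0.948, 0.837 and 0.732 in Ctrl 5 and 0.897, 1.02 and 0.739 in Ctrl 25. The margin was small, and SMG 5 replicate 1 fell among the controls. On the log2 scale STE11 differed from Ctrl by 0.29 (SE 0.11) in SMG 5 and 0.42 (SE 0.11) in SMG 25.

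STE7, the MAP kinase kinase, was at 1.23, 1.09 and 1.15 in SMG 5 and at 1.01, 1.10 and 0.994 in SMG 25, against 0.967, 1.14 and 0.636 in Ctrl 5 and 0.621, 0.662 and 0.587 in Ctrl 25. FUS3, the MAP kinase of the mating response, was at 1.37, 1.36 and 1.25 in SMG 5 and at 0.946, 1.06 and 0.777 in SMG 25, against 1.19, 1.36 and 0.483 in Ctrl 5 and 0.322, 0.449 and 0.478 in Ctrl 25. In both genes Ctrl 5 replicates 1 and 2 were at or near the LSMMG range, with replicate 1 of STE7 just under it, and the other 4 controls lay below every LSMMG array. The log2 fold change of FUS3 was 1.11 (SE 0.40) in SMG 5 and 0.58 (SE 0.40) in SMG 25, and that of STE7 was 0.64 (SE 0.19) in SMG 5 and 0.48 (SE 0.19) in SMG 25.

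STE12, the transcription factor at the end of the cascade, was the only component lower on every LSMMG array than on every control array. It was at 0.751, 0.834 and 0.839 in SMG 5 and at 0.90, 0.901 and 0.958 in SMG 25, against 1.48, 1.06 and 1.39 in Ctrl 5 and 1.17, 1.04 and 1.31 in Ctrl 25. Ctrl 5 replicates 1 and 2 were not set apart from the other controls here. On the log2 scale STE12 differed from Ctrl by −0.61 (SE 0.12) in SMG 5 and −0.42 (SE 0.12) in SMG 25.

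FAR1 was the least even component within a group. It was at 2.46, 0.581 and 1.19 in SMG 5 and at 1.06, 1.07 and 0.947 in SMG 25, against 1.19, 1.30 and 0.680 in Ctrl 5 and 0.666, 0.476 and 0.506 in Ctrl 25. SMG 5 replicate 1 held its highest value and SMG 5 replicate 2 was at the level of the lower controls. The log2 fold changes of FAR1, 0.68 (SE 0.42) in SMG 5 and 0.46 (SE 0.42) in SMG 25, carried the largest SE among the components. That SE rests on the spread within all 3 groups, the controls included, and the SE of FUS3 was close to it at 0.40.

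Counted with the rule used for all probe sets, 4 of the 10 components were on the higher side in SMG 5 and 3 in SMG 25, and 1 was on the lower side at each time. These counts stand beside 22.5% and 21.7% of all probe sets higher and 18.3% and 17.9% lower, and since the genes were picked on these contrasts nothing is read from them. STE18 and STE5 in SMG 5 and STE11 in SMG 25 were above every control array, a pattern that 20.3% and 20.2% of all probe sets and 30.7% and 30.6% of named genes showed for the 2 times. STE12 was below every control at each time, as were 17.7% and 17.2% of probe sets and 25.8% and 24.2% of named genes. The median log2 fold change of the 10 components was 0.62 in SMG 5 and 0.47 in SMG 25. SMG 25 and SMG 5 share the control arrays, so their values are not independent of each other.

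Much of the size of these changes rested on which controls were used. In 7 of the 10 components, GPA1, STE4, STE18, STE5, STE7, FUS3 and FAR1, the 2 highest of the 6 control arrays were Ctrl 5 replicates 1 and 2, which was so for 26.7% of all probe sets and 39.0% of named genes. The median ratio of the 10 components was 1.11 and 1.14 on those 2 arrays and 0.546 to 0.658 on the other 4 controls, with 1.03 to 1.27 in SMG 5 and 0.952 to 1.08 in SMG 25. Without those 2 arrays the log2 fold change in SMG 5 was 1.05 for GPA1, 0.65 for STE4, 1.66 for STE5, 0.89 for STE7, 1.63 for FUS3 and 1.05 for FAR1. The value of STE18 differed by less than its SE, at 3.26 in SMG 5 and 1.42 in SMG 25, and STE12 was at −0.60 and −0.41.

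**Figure D2:**
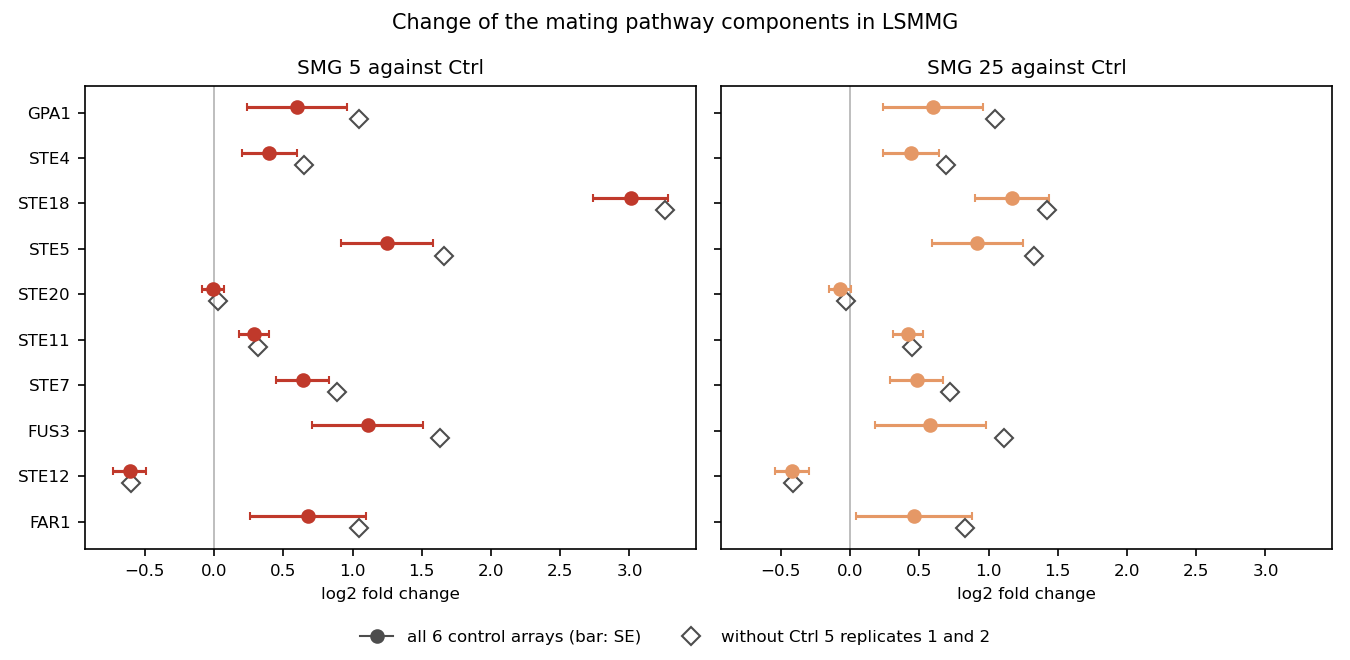
The log2 fold change of each component against Ctrl for SMG 5 (left) and SMG 25 (right), with all 6 controls (filled points, bars are SE) and without Ctrl 5 replicates 1 and 2 (open diamonds). STE20, STE11 and STE12 hardly move between the 2 choices and STE18 moves by less than its SE, while GPA1, STE5, FUS3 and FAR1 move by about 0.4 to 0.5.

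Set against the controls of its own generation, SMG 5 lay closer to them in several components. The log2 fold change was then 2.82 for STE18, 0.90 for STE5, 0.52 for FUS3, 0.38 for STE7, 0.23 for FAR1, 0.13 for GPA1, 0.12 for STE4 and −0.69 for STE12 in SMG 5. For SMG 25 against Ctrl 25 it was 1.37 for STE18, 1.27 for STE5, 1.16 for FUS3, 1.07 for GPA1, 0.91 for FAR1, 0.73 for STE7, 0.72 for STE4 and −0.35 for STE12. The 25-generation values were thus the larger ones for GPA1, STE4, STE5, STE7, FUS3 and FAR1 with controls matched by generation, and STE18 kept the larger value at 5 generations.

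The control groups themselves could be tested, as Ctrl 25 against Ctrl 5. No component passed in limma, with 4 of 10 at an unadjusted p under 0.05 and none by the methods' Welch test after adjustment. The same unadjusted limma limit was met by 1790 of 5449 named genes and 2181 of 8968 probe sets. Over all probe sets 0.0335% were called higher and 0.100% lower in Ctrl 25, and over named genes 0.0367% and 0.147%. The log2 fold change was −1.17 (SE 0.32, limma adjusted p = 0.086) for FUS3, −0.93 (SE 0.32, limma adjusted p = 0.12) for GPA1, −0.55 (SE 0.17, limma adjusted p = 0.10) for STE4 and −0.39 (SE 0.30, limma adjusted p = 0.46) for STE18. Deviations of same-numbered control arrays correlated at 0.103 to 0.49. Ctrl 5 replicate 1 correlated more with Ctrl 25 replicate 2 (0.4) than with its own number (0.103), so a pairing by number is not clear. A fit of the control arrays alone with the replicate number as a block was chosen after the data were seen. In it the limma adjusted p was 0.28 for FUS3, 0.26 for GPA1 and 0.28 for STE4, and 0 probe sets were called higher and 3 lower. The call depended on Ctrl 5 replicate 3. Without that array 5 components, GPA1, STE4, STE5, STE7 and FUS3, were called lower in Ctrl 25, with a limma adjusted p of 7.2e-05 for FUS3, beside 1865 of 8968 probe sets called lower against 9 with all arrays.

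Markers of the mating types were read on the same arrays. The median ratio of 7 genes of a cells (MFA1, MFA2, STE2, STE6, BAR1, AGA2 and ASG7) was 1.0 to 1.45 in SMG 5, 0.984 to 1.11 in SMG 25, 0.520 to 1.22 in Ctrl 5 and 0.427 to 0.459 in Ctrl 25. That of 4 genes of alpha cells (MF(ALPHA)1, MF(ALPHA)2, STE3 and SAG1) was 0.806 to 1.20 in SMG 5, 0.951 to 1.06 in SMG 25, 0.701 to 1.79 in Ctrl 5 and 0.541 to 0.740 in Ctrl 25. That of 3 haploid-specific genes outside the components (RME1, HO and NEJ1) was 0.905 to 1.25 in SMG 5, 0.715 to 1.08 in SMG 25, 0.95 to 1.62 in Ctrl 5 and 0.753 to 0.839 in Ctrl 25. In limma 4 of the 7 a-cell genes, MFA1, STE6, AGA2 and ASG7, were higher in SMG 5 and 2, MFA1 and STE6, in SMG 25, against 34.3% and 33.2% of named genes. The limma adjusted p in SMG 5 was 0.042 for STE6 and 0.047 for AGA2. By the methods' Welch test 2 of the 7 were higher at each time. None of the 4 alpha-cell genes passed at either time in limma or by the methods' Welch test, with 0 at an unadjusted p under 0.05. Of the 3 haploid-specific genes none was higher, and RME1 was lower in SMG 25. Ratios cannot be summed over genes, so medians are given in place of a summed level. On Ctrl 5 replicates 1 and 2 the a-cell median was 1.0 and 1.22, and on the other 4 controls at most 0.520. The alpha-cell median was 1.25 and 1.79 on those 2 arrays and 0.541 to 0.740 on the other 4 controls. The median of the 3 haploid-specific genes was 1.06 on Ctrl 5 replicate 3, where the median component was at 0.658. The part of these markers in the levels of the components was not tested. With bulk RNA, a larger share of cells that use these genes and more of their RNA per cell cannot be told apart.

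The pathway around the 10 components was read from lists of its other genes, 84 of which were on the array. In limma 27 of the 84 were higher and 11 lower in SMG 5 than in Ctrl, and 25 were higher and 12 lower in SMG 25, against 34.3% and 26.8% of named genes in SMG 5 and 33.2% and 25.3% in SMG 25. The median log2 fold change of the 84 genes was 0.31 in SMG 5 and 0.23 in SMG 25, with 0.13 and 0.15 over all named genes. Without Ctrl 5 replicates 1 and 2 the counts higher were 50 in SMG 5 and 47 in SMG 25, beside 2641 and 2651 of 8968 probe sets, against 2018 and 1943 with all controls. These totals take in 3470 probe sets without a gene name. With all controls 1870 and 1807 named genes were higher, and the share of named genes without the 2 arrays was not counted. Ctrl 5 replicates 1 and 2 were the 2 highest controls in 58 of the 84 genes, against 39.0% of named genes. The counts of each list below stand beside the shares of named genes given above.

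The receptors lie at the head of the pathway. STE2, the receptor of alpha-factor, had a log2 fold change of 0.35 (limma adjusted p = 0.40) in SMG 5 and 0.47 (limma adjusted p = 0.26) in SMG 25. STE3, the receptor of a-factor, had 0.52 (limma adjusted p = 0.27) in SMG 5 and 0.37 (limma adjusted p = 0.44) in SMG 25. Neither passed with all 6 controls. Without Ctrl 5 replicates 1 and 2 each passed at both times, with a limma adjusted p of 0.033 and 0.015 for STE2 and of 0.00039 and 0.0013 for STE3 in SMG 5 and SMG 25. Against controls of the same generation STE2 had −0.13 (limma adjusted p = 0.72) in SMG 5 and 0.95 (limma adjusted p = 0.0042) in SMG 25, and STE3 had 0.09 (limma adjusted p = 0.87) and 0.79 (limma adjusted p = 0.066).

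Of 14 other signalling genes, 5 were higher and none lower in SMG 5, and 3 were higher and 1 lower in SMG 25. STE50, the adaptor that binds Ste11, ran from 1.41 to 1.45 in SMG 5 and from 1.21 to 1.34 in SMG 25, against 0.548 to 0.799 on the controls, without overlap. It rose by a log2 fold change of 1.09 (SE 0.11, limma adjusted p = 1.5e-05) in SMG 5 and 0.95 (SE 0.11, limma adjusted p = 4.2e-05) in SMG 25. TEC1, the partner of Ste12 at filamentation genes, rose by 0.85 (limma adjusted p = 0.0027) in SMG 5 and 0.75 (limma adjusted p = 0.0061) in SMG 25, while the values of STE12 were below 0. PTP2, a tyrosine phosphatase of MAP kinases, rose by 1.48 (limma adjusted p = 0.0032) and 1.28 (limma adjusted p = 0.0079) at the 2 times. SST2, which speeds GTP hydrolysis by Gpa1, and CDC24, the exchange factor that Far1 brings to the site of growth, passed in SMG 5 with all 6 controls, with adjusted p of 0.020 and 0.033 in limma. Leaving out SMG 5 replicate 1 brought these to 0.093 and 0.10, and controls of the same generation to 0.12 and 0.19. The SST2 call was lost when any of 2 arrays was left out, and that of CDC24 when any of 6 was. In SMG 25 SST2 passed without Ctrl 5 replicates 1 and 2 (0.42, limma adjusted p = 0.0016). KSS1, the MAP kinase of filamentous growth that is close to Fus3, was lower in SMG 25 (log2 fold change −0.65, limma adjusted p = 0.0015) and at −0.26 (limma adjusted p = 0.13) in SMG 5, where it passed against Ctrl 5 (−0.40, limma adjusted p = 0.029). The Ste12 inhibitors DIG1 and DIG2 did not pass at either time with all 6 controls, with log2 fold changes from 0.01 to 0.33. DIG2 passed without Ctrl 5 replicates 1 and 2, with 0.33 (limma adjusted p = 0.0039) in SMG 5 and 0.48 (limma adjusted p = 0.00031) in SMG 25, and against Ctrl 25 (0.49, limma adjusted p = 0.0054) but not against Ctrl 5 (0.02, limma adjusted p = 0.92).

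Of 16 genes for the pheromones, their processing and export, 5 were higher and 2 lower in SMG 5, and 6 were higher and 2 lower in SMG 25. MFA1, a gene of the a-factor precursor, was the closest of them to STE18. It was at 2.23, 2.96 and 2.36 in SMG 5 and at 1.08, 1.14 and 0.984 in SMG 25, against 0.908, 1.03 and 0.520 in Ctrl 5 and 0.354, 0.286 and 0.367 in Ctrl 25. SMG 5 lay above all other arrays, and SMG 25 overlapped Ctrl 5 replicate 2. MFA1 rose by a log2 fold change of 2.29 (SE 0.36, limma adjusted p = 0.00038) in SMG 5 and 1.06 (SE 0.36, limma adjusted p = 0.037) in SMG 25. The call in SMG 25 was lost when any of 8 arrays was left out, with limma adjusted p from 0.0049 to 0.11 over the 12 choices. It was 2.6e-05 without Ctrl 5 replicates 1 and 2 (log2 fold change 1.52) and 0.00014 against Ctrl 25 (1.68). MFA2, the other a-factor gene, was at 1.75, 1.0 and 1.09 in SMG 5, against 0.427 to 1.44 on the controls, and did not pass (limma adjusted p = 0.12).

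The farnesyltransferase and proteases that mature the pheromones are also used by other proteins. RAM1, the beta subunit of the farnesyltransferase that also modifies Ste18, rose by a log2 fold change of 0.63 (limma adjusted p = 0.00095) in SMG 25 and had 0.30 (limma adjusted p = 0.053) in SMG 5, with 0.43 (limma adjusted p = 0.00049) without Ctrl 5 replicates 1 and 2 and 0.18 (limma adjusted p = 0.27) against Ctrl 5. STE13, a protease of the alpha-factor precursor, rose by 1.08 (limma adjusted p = 0.00076) in SMG 5 and 0.91 (limma adjusted p = 0.0024) in SMG 25. STE24 and KEX1 rose by 0.38 to 0.49 at both times, and KEX2, the first protease to cut the alpha-factor precursor, was lower by log2 fold changes of −0.38 (limma adjusted p = 0.0024) in SMG 5 and −0.43 (limma adjusted p = 0.0012) in SMG 25.

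Of 23 genes known as targets of the mating response, 8 were higher and 2 lower at each time. Of named genes 34.3% were higher and 26.8% lower in SMG 5, and 33.2% and 25.3% in SMG 25, so the share higher was near that of all named genes. The median log2 fold change of the targets was 0.64 in SMG 5 and 0.75 in SMG 25. PRM8, PRM5 and PRM4, pheromone-regulated genes, had the largest rises. PRM8 ran from 1.55 to 1.67 in SMG 5 and from 1.47 to 1.73 in SMG 25, against 0.225 to 0.534 on the controls, and rose by log2 fold changes of 2.34 (SE 0.23, limma adjusted p = 1.3e-05) and 2.32 (SE 0.23, limma adjusted p = 1.3e-05). PRM5 rose by 2.82 in SMG 5 and 2.44 in SMG 25, and PRM4 by 2.99 and 2.47, with limma adjusted p from 0.00054 to 0.0025. These 3 genes did not overlap the controls at either time, Ctrl 5 replicates 1 and 2 included. KAR5, which acts in nuclear fusion, rose by 0.79 (limma adjusted p = 0.0046) in SMG 25. In SMG 5 it had 0.50 (limma adjusted p = 0.045). That call was lost when any of 10 arrays was left out, with limma adjusted p from 0.0029 to 0.12 over the 12 choices. Against Ctrl 5 KAR5 had 0.27 (limma adjusted p = 0.26). PRM7, another pheromone-regulated gene, was not on this list and was looked at after its values were seen. On the plain one of its 2 probe sets it was at 0.651, 0.777 and 0.749 in SMG 5 and at 0.775, 0.754 and 0.972 in SMG 25, against 1.21, 1.04 and 4.08 in Ctrl 5 and 2.61, 1.77 and 3.39 in Ctrl 25. Its log2 fold change was −1.52 (limma adjusted p = 0.0068) in SMG 5 and −1.33 (limma adjusted p = 0.015) in SMG 25. PRM7 was highest on Ctrl 5 replicate 3 and Ctrl 25 replicate 3, the arrays on which BSC1 stood at 30.4 and 24.8. Its other probe set was not used.

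The 2 lower targets also work outside mating. CIK1, the partner of the kinesin Kar3 in mitosis and karyogamy, was at 0.575, 0.650 and 0.600 in SMG 5 and at 0.767, 0.767 and 0.70 in SMG 25, against 1.23 to 1.46 on the controls. It fell by a log2 fold change of 1.10 (SE 0.08, limma adjusted p = 1.5e-06) in SMG 5 and 0.81 (SE 0.08, limma adjusted p = 1.1e-05) in SMG 25. PCL2, a cyclin of Pho85 in the cell cycle, ran from 0.514 to 0.609 in SMG 5 and from 0.562 to 0.690 in SMG 25, against 1.30 to 1.96 on the controls, and fell by 1.46 (limma adjusted p = 1e-05) and 1.32 (limma adjusted p = 2e-05). In 19 of the 23 targets, against 39.0% of named genes, Ctrl 5 replicates 1 and 2 were the 2 highest controls. FUS1, a membrane protein of cell fusion and a standard reporter of the pathway, was at 1.28, 1.02 and 0.982 in SMG 5 and at 1.37, 1.26 and 1.20 in SMG 25, against 0.912 and 1.03 on those 2 arrays and 0.191 to 0.325 on the other 4 controls.

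**Figure D3:**
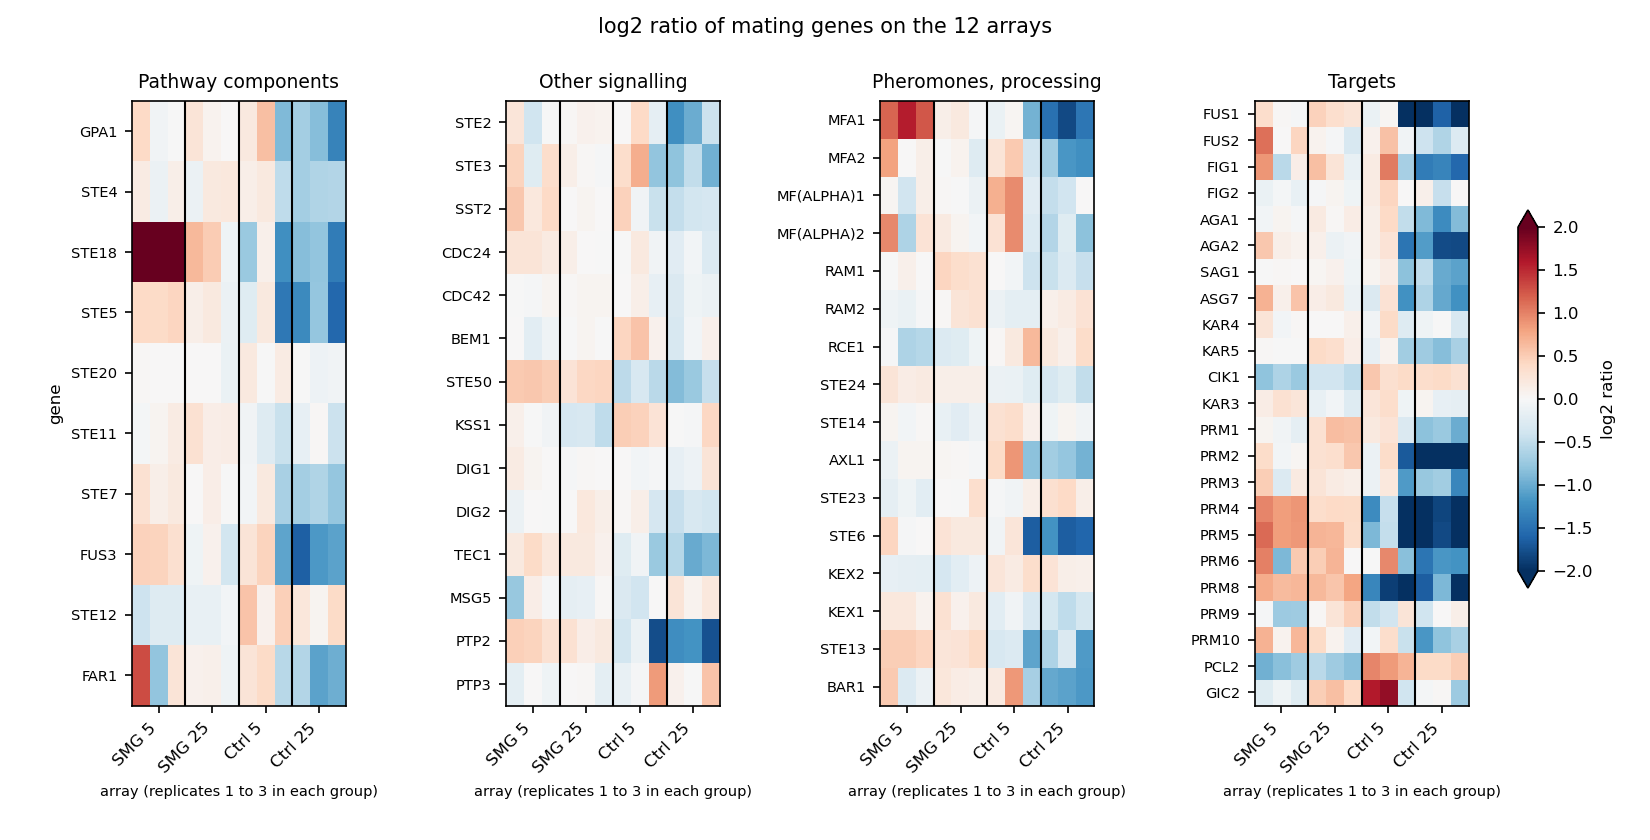
The log2 ratio of the 10 components, 14 other signalling genes, 16 genes of the pheromones and 23 targets (rows) on the 12 arrays (columns, replicates 1 to 3 within each group), with red above and blue below a ratio of 1 and colours ending at −2 and 2. STE18 and MFA1 are red on all 3 SMG 5 arrays and paler in SMG 25, and FUS3, STE6 and FUS1 are blue on 4 controls but near the LSMMG colours on Ctrl 5 replicates 1 and 2.

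Of 15 other haploid-specific genes and regulators of mating type, 3 were higher and 4 lower in SMG 5, and 1 was higher and 4 lower in SMG 25. AMN1, an antagonist of mitotic exit, fell by a log2 fold change of 1.12 (limma adjusted p = 2.3e-06) in SMG 5 and 1.08 (limma adjusted p = 2.9e-06) in SMG 25. SIR1, which silences the spare mating-type loci, fell by 0.98 (limma adjusted p = 4.3e-05) and 1.06 (limma adjusted p = 2.5e-05), and CYC8, a corepressor that works with Tup1, by 0.57 (limma adjusted p = 0.00026) and 0.54 (limma adjusted p = 0.00038). SIR4, another silencing protein, was higher in SMG 5 (0.46, limma adjusted p = 0.023), so the silencing genes did not move one way. This call was lost without SMG 5 replicate 3 (limma adjusted p = 0.092) and against Ctrl 5 (0.33, limma adjusted p = 0.13), while in SMG 25 SIR4 passed without Ctrl 5 replicates 1 and 2 (0.51, limma adjusted p = 0.00036) and against Ctrl 25 (0.47, limma adjusted p = 0.026). HMRA2, a silent copy of a2, rose by 1.56 (limma adjusted p = 0.0027) and 1.51 (limma adjusted p = 0.0034), and its sequence is shared with the active MAT locus, so the source of the RNA is uncertain. RME1, a repressor of meiosis in haploids, fell by 0.79 (limma adjusted p = 0.0086) in SMG 25 and was at −0.20 (limma adjusted p = 0.49) in SMG 5.

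STE20, STE11, STE7 and STE12 also act in filamentous growth, and of 10 genes of that branch 4 were higher and 2 lower at each time. OPY2, the membrane anchor of Ste50, rose by a log2 fold change of 1.34 (limma adjusted p = 2.6e-05) in SMG 5 and 1.25 (limma adjusted p = 4.2e-05) in SMG 25. SKM1, a kinase of the family of Ste20, ran from 1.75 to 2.20 in SMG 5 and from 1.18 to 1.44 in SMG 25, against 0.336 to 0.836 on the controls, and rose by 1.93 (limma adjusted p = 0.00015) and 1.36 (limma adjusted p = 0.0017). The targets FLO11 and PGU1 were higher at both times, by 0.61 and 1.61 in SMG 5 and by 0.78 and 2.0 in SMG 25, and their SMG 5 calls were lost without SMG 5 replicate 1, with limma adjusted p of 0.057 and 0.053. They were also lost against Ctrl 5, at 0.37 (limma adjusted p = 0.071) and 1.07 (limma adjusted p = 0.075). The sensors HKR1 and SHO1 were lower at both times, with log2 fold changes from −0.46 to −0.74, and the SMG 25 call of SHO1 was lost without SMG 25 replicate 1 (limma adjusted p = 0.16).

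The other heterotrimeric G protein pathway of yeast senses glucose. Of its 6 genes, 2 were higher and 1 lower in SMG 5, and 3 were higher and 1 lower in SMG 25. GPA2, its Gα subunit, ran from 1.33 to 1.42 in SMG 5 and from 1.40 to 1.78 in SMG 25, against 0.342 to 0.674 on the controls, and rose by log2 fold changes of 1.61 (SE 0.20, limma adjusted p = 5.8e-05) and 1.86 (SE 0.20, limma adjusted p = 2e-05). GPR1, its receptor, rose by 0.48 (limma adjusted p = 0.022) in SMG 5 and 0.59 (limma adjusted p = 0.0078) in SMG 25, and its SMG 5 call was lost without SMG 5 replicate 3 (limma adjusted p = 0.090) and against Ctrl 5 (0.39, limma adjusted p = 0.10). ASC1 was lower in SMG 5 (−0.52, limma adjusted p = 0.0037), RGS2 was lower in SMG 25 (−0.68, limma adjusted p = 0.018) and lost the call without SMG 25 replicate 1 (limma adjusted p = 0.069), and GPB2 was higher in SMG 25 (0.27, limma adjusted p = 0.048), a call lost when most single arrays were left out. Without Ctrl 5 replicates 1 and 2, ASC1 was lower also in SMG 25 (−0.30, limma adjusted p = 0.018), and RGS2 (0.32, limma adjusted p = 0.0080) and GPB2 (0.31, limma adjusted p = 0.0049) were higher in SMG 5. RGS2 had −0.43 (limma adjusted p = 0.083) in SMG 25 against Ctrl 25.

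Between the 2 times in LSMMG, none of the 84 other genes passed in limma for SMG 25 against SMG 5. At an unadjusted limma p under 0.05 were 10 of the 84, against 925 of 5449 named genes. Over all probe sets 1.18% were called higher and 0.524% lower in SMG 25, and over named genes 1.89% and 0.807%. MFA1 had a difference of −1.23 (SE 0.42, limma adjusted p = 0.22).

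Across all 5448 other named genes, those closest to STE18 over the 12 arrays, by the root mean square difference of the log2 ratios, were ZNF1 at 0.265, YKR075C at 0.465, ATG1 at 0.537, MFA1 at 0.621 and SRX1 at 0.638. The next gene followed at 0.645, so the end of this list is arbitrary, and the median over all genes was 1.28. ZNF1, a zinc cluster transcription factor gene, was at 4.87, 5.13 and 4.63 in SMG 5 and at 1.80, 1.77 and 0.905 in SMG 25, against 0.97, 1.04 and 0.492 in Ctrl 5 and 0.448, 0.601 and 0.438 in Ctrl 25. SMG 25 replicate 3 was the lowest of its group in ZNF1, YKR075C, ATG1, MFA1, SRX1 and STE18. ATG1 encodes the kinase that starts autophagy and SRX1 a sulfiredoxin that repairs oxidized peroxiredoxins. Of the 5, only MFA1 is on a mating list. They were picked for likeness to STE18, so their levels are a description.

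**Figure D4:**
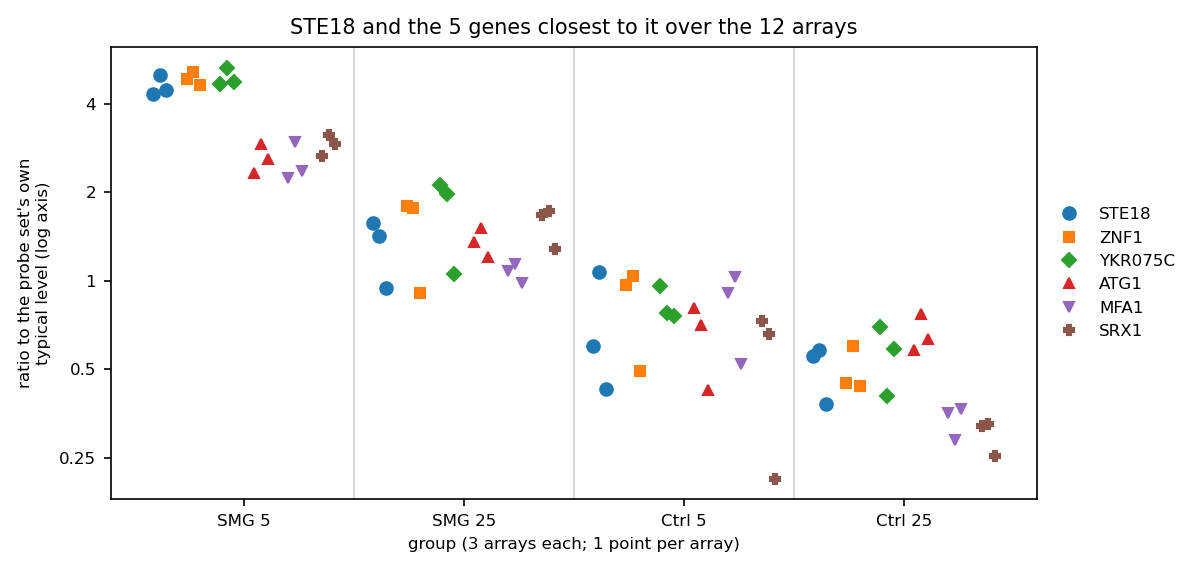
Ratios of STE18 and of the 5 named genes closest to it over the 12 arrays (log axis), by group, with a point per array. STE18, ZNF1 and YKR075C reach above 4 in SMG 5, and SMG 25 replicate 3 is the lowest SMG 25 point of each gene.

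The genes next to STE18 on its chromosome did not have its profile. Of the 3 on each side, 5 were on the array. ACF4 was higher at both times, by log2 fold changes of 0.84 (limma adjusted p = 0.0012) in SMG 5 and 0.80 (limma adjusted p = 0.0017) in SMG 25. YJR084W had −0.07 (limma adjusted p = 0.52) in SMG 5 and rose by 0.54 (limma adjusted p = 0.00023) in SMG 25, and the difference between the times, 0.61 (SE 0.09), also passed (limma adjusted p = 0.015). EMC2 was lower in SMG 5 (−0.47, limma adjusted p = 0.0079), GRR1 was lower at both times and BIR1 did not pass. Neighbours of the other components went both ways in SMG 5. ACH1 beside FUS3 had 1.57 (limma adjusted p = 3.3e-06), IPI1 beside STE12 had −1.26 (limma adjusted p = 6e-05), and SPO71 beside STE5 had 0.03 (limma adjusted p = 0.9). Beside STE7 lies YDL159W-A, which was at 3.91, 0.997 and 2.24 in SMG 5 and at 0.998, 1.69 and 0.990 in SMG 25, against 1.51, 1.94 and 0.344 in Ctrl 5 and 0.159, 0.228 and 0.121 in Ctrl 25. Its order within SMG 5, with replicate 1 highest and replicate 2 lowest, was that of FAR1 and of MFA2. SMG 5 replicate 1 was the highest of its group in 6 of the 10 components and in 45 of the 84 other genes, and in 38.4% of all probe sets and 44.3% of named genes.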

How the data were processed

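Labelled RNA was hybridised to 12 Affymetrix Yeast Genome 2.0 arrays. The authors normalised the arrays by RMA and analysed them in GeneSpring 7.2; the deposited values are ratios, with a median of 1 on each array and probe set medians from 0.9935 to 1.0105, so the study's signal minimum of 50 could not be applied, and depth in reads does not apply to arrays, whose number limits the precision. The columns map to the samples by their labels, with groups from the titles. From 10928 probe sets, 1746 of S. pombe, 213 array controls and 1 with several gene names were left out, which kept 8968, of which 3470 have no gene name. Where a gene had several probe sets, the plain one was used; every list gene had 1. Gene names came from the platform annotation and gene order from a RefSeq table of assembly R64, of which no coordinate was used.

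The ratios were taken to log2 with no pseudocount and fitted with limma 3.58.1 in R 4.3.3, with the groups Ctrl, SMG 5 and SMG 25, or with 4 groups for Ctrl 25 against Ctrl 5. P-values were Benjamini-Hochberg adjusted over all 8968 probe sets, with a threshold of 0.05. The design row for promoter motifs was not run, and no sequence was used here. The scripts were tested on simulated data.

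The components and the gene lists were chosen with earlier results of these data known. From each list, up to 6 genes that passed in either LSMMG comparison were named by the size of the moderated test statistic, with STE2, STE3, SST2, KSS1, DIG1, DIG2 and TEC1 always, the neighbours of STE18 and the 5 genes most like STE18. Of the neighbours of the other components, ACH1, IPI1, SPO71 and YDL159W-A are described, picked with their values in view. FUS1, MFA2, BSC1 and PRM7 were named after their values were seen. The alternatives tried were controls of the same generation, another scaling, a pseudocount of 0.1, named S. cerevisiae probe sets alone and the methods' Welch test. Others were the methods' requirement of a 2-fold change, the replicate number as a block, array weights, and leaving out arrays. Where 1 array is named whose omission lost a call, it gave the highest limma adjusted p. Other omissions could lose that call too. For Ctrl 25 against Ctrl 5 the 3 pairs of same-numbered arrays correlated at 0.103 to 0.49 in their deviations from the group means, each above 0.1. Ctrl 5 replicate 1 correlated more with Ctrl 25 replicate 2 (0.4), so a pairing by number is not clear, and the labels state none. A fit of the control arrays alone with the replicate number as a block was added after the data were seen. Figures were drawn with matplotlib 3.10.9.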

Additional observations from a re-analysis of the deposited data

Results flagged for a closer look

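Among 53 named genes, the 6 control arrays were searched for a value far from the rest. CIK1 on Ctrl 5 replicate 1 was found, at 1.46 against 1.23 to 1.31 on the other 5 controls. Such a search marks about 1 group in 20 by chance, and this was the only mark. CIK1 was below every control on all 6 LSMMG arrays with or without it.

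YJR084W, which lies near STE18, differed between the times in LSMMG. Its log2 difference SMG 25 minus SMG 5 was 0.61 (SE 0.09, limma adjusted p = 0.015), with 1.42, 1.34 and 1.45 in SMG 25, against 0.985, 0.932 and 0.852 in SMG 5. The 6 controls ran from 0.901 to 1.04.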

How the results depend on the processing

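No result called with all arrays turned its direction under any alternative run. Of results with no call, STE2 in SMG 5 was at −0.13 and RGS2 in SMG 5 at −0.19 against controls of the same generation, RGS2 at −0.02 to 0.17 with 1 array left out, lowest without SMG 5 replicate 2, DIG1 in SMG 25 at −0.08 with quantile normalization and at −0.02 to 0.07 with 1 array left out, below 0 without Ctrl 25 replicate 1 or 2, and STE11 in Ctrl 25 against Ctrl 5 at −0.02 with array weights and at −0.04 to 0.19 with 1 array left out, below 0 without Ctrl 5 replicate 3 or Ctrl 25 replicate 2. The counts depended on the controls. The components were picked on the LSMMG contrasts, so their LSMMG counts under any setting are a description and nothing is read from them. Against controls of the same generation, 1 component was higher in SMG 5, and 7 were higher and 0 lower in SMG 25, with 14 other mating genes higher in SMG 5 and 37 in SMG 25, beside 1564 and 2342 of 8968 probe sets. FUS3 then moved to 0.52 and 1.16. Without Ctrl 5 replicates 1 and 2, 8 components were higher in SMG 5 and 7 in SMG 25, with 50 and 47 other genes higher, and 2 higher and 7 lower for SMG 25 against SMG 5. Over all 8968 probe sets 2641 were then higher in SMG 5 and 2651 in SMG 25, with 363 higher and 244 lower for SMG 25 against SMG 5. With array weights the counts were 7 and 7 components, 5 lower in Ctrl 25 than in Ctrl 5, 49 and 43 other genes, and 7 higher and 9 lower for SMG 25 against SMG 5, beside 2662 and 2647 of 8968 probe sets higher in SMG 5 and SMG 25 and 1644 lower in Ctrl 25. For SMG 25 against SMG 5 the weights gave 748 probe sets higher and 604 lower. With at least a 2-fold change needed, 0 components were lower in SMG 5, and 1 was higher and 0 lower in SMG 25, with 16 other genes higher and 3 lower in SMG 5 and 13 higher and 3 lower in SMG 25, since the rule asks for more. The share over all probe sets was not counted with this rule. These counts therefore do not show whether the listed genes lost more or fewer calls than other genes. With quantile normalization, 4 other genes were higher and 7 lower for SMG 25 against SMG 5, beside 464 and 426 of 5498 named probe sets. STE18 in SMG 5 then moved to 2.58. Apart from what each setting changes by its construction, the cause was not tested.

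Leaving out 1 array at a time, 2 to 6 components were higher and 1 to 1 lower in SMG 5, and 1 to 6 higher and 0 to 1 lower in SMG 25. The 2 came without SMG 5 replicate 1 or 3, the 6 without Ctrl 5 replicate 2, which also gave 6 in SMG 25, where leaving out SMG 25 replicate 1 gave 1 higher and 0 lower and leaving out Ctrl 5 replicate 1 gave 5. Over all 8968 probe sets, 1556 and 1592 were higher in SMG 5 without SMG 5 replicate 1 or 3, and 2368 without Ctrl 5 replicate 2. In SMG 25, 1549 were higher and 1292 lower without SMG 25 replicate 1, and 2087 and 2338 were higher without Ctrl 5 replicate 1 or 2. The components were picked on these contrasts, so nothing is read from their counts. In Ctrl 25 against Ctrl 5, 0 to 5 components were lower, the 5 without Ctrl 5 replicate 3, beside 1865 of 8968 probe sets. Totals over 8968 take in 3470 probe sets without a gene name. Of the other genes 17 to 43 were higher and 10 to 12 lower in SMG 5, with 43 without Ctrl 5 replicate 2 and 17 without SMG 5 replicate 3, and 19 to 36 were higher and 9 to 13 lower in SMG 25.

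Over all 4 groups same-numbered arrays did not deviate together, with 5 of 18 pairs correlated above 0.1 and a range from −0.278 to 0.49, and 4 of 12 arrays correlated best with their own number. The block was also run on the control arrays alone, where a pairing by number was not clear either. With the replicate number as a block, 3 components were higher and 1 lower in SMG 5 and 3 higher and 1 lower in SMG 25, and of the other genes 26 higher and 11 lower in SMG 5 and 23 higher and 12 lower in SMG 25, and 0 components were lower in Ctrl 25 with all arrays or with control arrays alone. Over all 8968 probe sets this block gave 1943 higher and 1590 lower in SMG 5, and 1891 higher and 1554 lower in SMG 25. Of the values of 49 genes recomputed under the alternatives, 2164 kept direction and side of the threshold or, untested, lay within the spread, 5 of STE20 turned sign near 0, 96 lost the call, 49 gained it and 3 moved by more than the spread. The alternative with other probe sets of a gene could not be run, since each list gene had 1.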
